A study of Mus musculus with 72 samples.

Results

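Xpc, Ddb2, Polk, Polh, Rrm2b, Gadd45a, Gadd45b and Gadd45g were followed in the blood of irradiated mice. These 8 genes are known for DNA repair or damage signalling, and some can be induced through p53. They were found by gene name on the arrays, and they are 8 of 31131 genes that the arrays named or identified by accession. Whole-blood RNA was measured on 72 one-colour arrays, with 1 array for each male C57BL/6 mouse. Mice were sham-irradiated (unirradiated controls), or were exposed to neutrons from an accelerator source at 0.25 Gy or 1 Gy, or to x-rays at 1 Gy or 4 Gy. Blood was drawn by cardiac puncture into an RNA stabilizer when the mice were killed on day 1, 3 or 7, and globin RNA was reduced before labelling. Day 1 had 5 controls, 6 mice at 0.25 Gy neutron, 6 at 1 Gy neutron, 6 at 1 Gy x-ray and 5 at 4 Gy x-ray. Day 7 had 6, 5, 6, 5 and 6 mice in the same order. Day 3 had 5 controls, 6 mice at 0.25 Gy neutron and 5 at 1 Gy x-ray.

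Nucleotide excision repair removes bulky and helix-distorting DNA lesions. XPC senses the distortion, and DDB2 binds ultraviolet photoproducts in chromatin and helps to recruit XPC. Polymerases kappa (Polk) and eta (Polh) copy past lesions that stop the replicative polymerases. Rrm2b encodes the p53-inducible small subunit of ribonucleotide reductase, which supplies deoxynucleotides to cells that are not replicating. The 3 Gadd45 proteins are small, stress-inducible and without enzyme activity of their own, and they act by binding partners such as p21 (Cdkn1a), PCNA, the CDK1-cyclin B complex and the kinase MAP3K4.

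The 250 bases before the start of each Gadd45 gene are shown because only Gadd45a of the family passed the test in any comparison below, and the windows let a reader compare the members. They come from RefSeq promoters of the assembly GRCm38.p6, where 5 of the 8 genes had an entry (Polk, Polh and the Gadd45 genes). The Gadd45a window is chr6:67037408-67037657 on the minus strand, that of Gadd45b is chr10:80929841-80930090 on the plus strand and that of Gadd45g is chr13:51846425-51846674 on the plus strand. Each is written 5′ to 3′ toward the gene, and capitals mark matches, on either strand, to the CCAAT box (CCAAT), to the octamer motif (ATTTGCAT), to the Sp1-type GC box (GGGCGG) or to the TATA box (TATAAA).
Gadd45a: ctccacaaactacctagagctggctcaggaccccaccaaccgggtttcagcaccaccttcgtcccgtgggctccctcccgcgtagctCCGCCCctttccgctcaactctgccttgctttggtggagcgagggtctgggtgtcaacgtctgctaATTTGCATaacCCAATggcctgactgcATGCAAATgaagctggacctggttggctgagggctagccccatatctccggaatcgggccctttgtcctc
Gadd45b: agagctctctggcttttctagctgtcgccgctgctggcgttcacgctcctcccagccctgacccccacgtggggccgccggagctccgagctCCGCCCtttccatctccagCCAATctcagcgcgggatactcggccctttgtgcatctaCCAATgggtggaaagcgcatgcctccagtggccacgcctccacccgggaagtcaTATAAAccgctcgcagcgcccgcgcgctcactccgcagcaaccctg
Gadd45g: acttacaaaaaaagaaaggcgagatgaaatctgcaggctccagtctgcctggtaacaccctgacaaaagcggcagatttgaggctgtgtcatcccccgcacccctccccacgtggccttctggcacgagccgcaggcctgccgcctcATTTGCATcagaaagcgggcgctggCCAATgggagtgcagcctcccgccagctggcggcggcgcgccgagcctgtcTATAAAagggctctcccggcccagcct

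The Gadd45a window held 1 CCAAT box between 2 octamer motifs, and 1 GC box. The Gadd45b window held 2 CCAAT boxes, 1 GC box and 1 TATA box, and the Gadd45g window held 1 octamer motif, 1 CCAAT box and 1 TATA box. Gadd45a had no match to the TATA box in its window, whereas Gadd45b had it 40 bases and Gadd45g 21 bases from the start. Among 32851 RefSeq promoter windows of the same length, 33.8% held a CCAAT box, 1.6% an octamer motif, 32.7% a GC box and 12.4% a TATA box. A p53 half-site by its consensus was found once in the Gadd45a window, in none of the windows of Gadd45b and Gadd45g, and in 7.13% of all windows. The marked letters did not overlap each other. The GC content was 59.2%, 65.2% and 62% in the order of the lines.

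Of the 8 genes, 7 had a probe that passed the detection filter and entered the tests, and each was followed through its brightest such probe. In the array's annotation (mouse build mm9) these 60-base probes lie at chr6:91439856-91439915 for Xpc, chr2:91052013-91052072 for Ddb2, chr13:97251653-97251712 for Polk, chr6:66985376-66985435 for Gadd45a, chr10:80394367-80394426 for Gadd45b and chr13:51943733-51943792 for Gadd45g. The Rrm2b probe is placed at chr13:3356462-3356521, whereas RefSeq places the gene on chromosome 15, so its values rest on the array's naming. The Polh probe at chr17:46309069-46309128 was dim or excluded on 26 of the 56 arrays of days 1 and 7, so Polh was given as levels and bounds with no test. Whether a probe lies in a coding exon or in the untranslated end was not given in the sources used here. No probe of these genes was saturated on any array.

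Levels are log2 intensities relative to the median detected probe of the same array, so 0 is the array's median, and they compare samples for 1 probe and not 1 gene with another. The arrays of the 1 Gy neutron group at day 7 were the dimmest, with 40.2% to 50.3% of spots well above background, against 49.5% to 67.3% in the other 12 groups. Marker levels of blood cell types differed between the groups. The mean level of 6 B cell markers, of which 5 were detected, was 2.81 to 3.60 in day 1 controls. On that day it was -0.17 to 1.60 after 1 Gy neutron, 2.08 to 2.73 after 1 Gy x-ray and -1.12 to 0.35 after 4 Gy x-ray. At day 7 it was 3.06 to 3.29 in controls, 1.38 to 1.80 after 1 Gy neutron, 2.12 to 2.95 after 1 Gy x-ray and 0.45 to 1.14 after 4 Gy x-ray. That of 6 erythroid markers was 2.75 to 3.57 in day 7 controls and 5.33 to 6.58 after 1 Gy neutron at day 7. Liver transcripts, which are not blood genes, were present. The mean of 12 hepatocyte markers, of which 6 were detected, ran from -0.78 to 6.33 in day 1 controls. It was 7.10 to 8.29 after 4 Gy x-ray at day 1 and -4.10 to -1.90 in day 7 controls. The part of the liver transcripts in the results below was not tested beyond the values given. From these arrays of whole blood, fewer cells of a type and less RNA per cell cannot be told apart. The study's methods state that neither cell death nor the make-up of white blood cells changed significantly with irradiation. The study also reports total blood counts in the normal range. Counts of B cells or of other cell types were not among the data used here, so the marker levels were not compared with them.

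**Figure D1:**
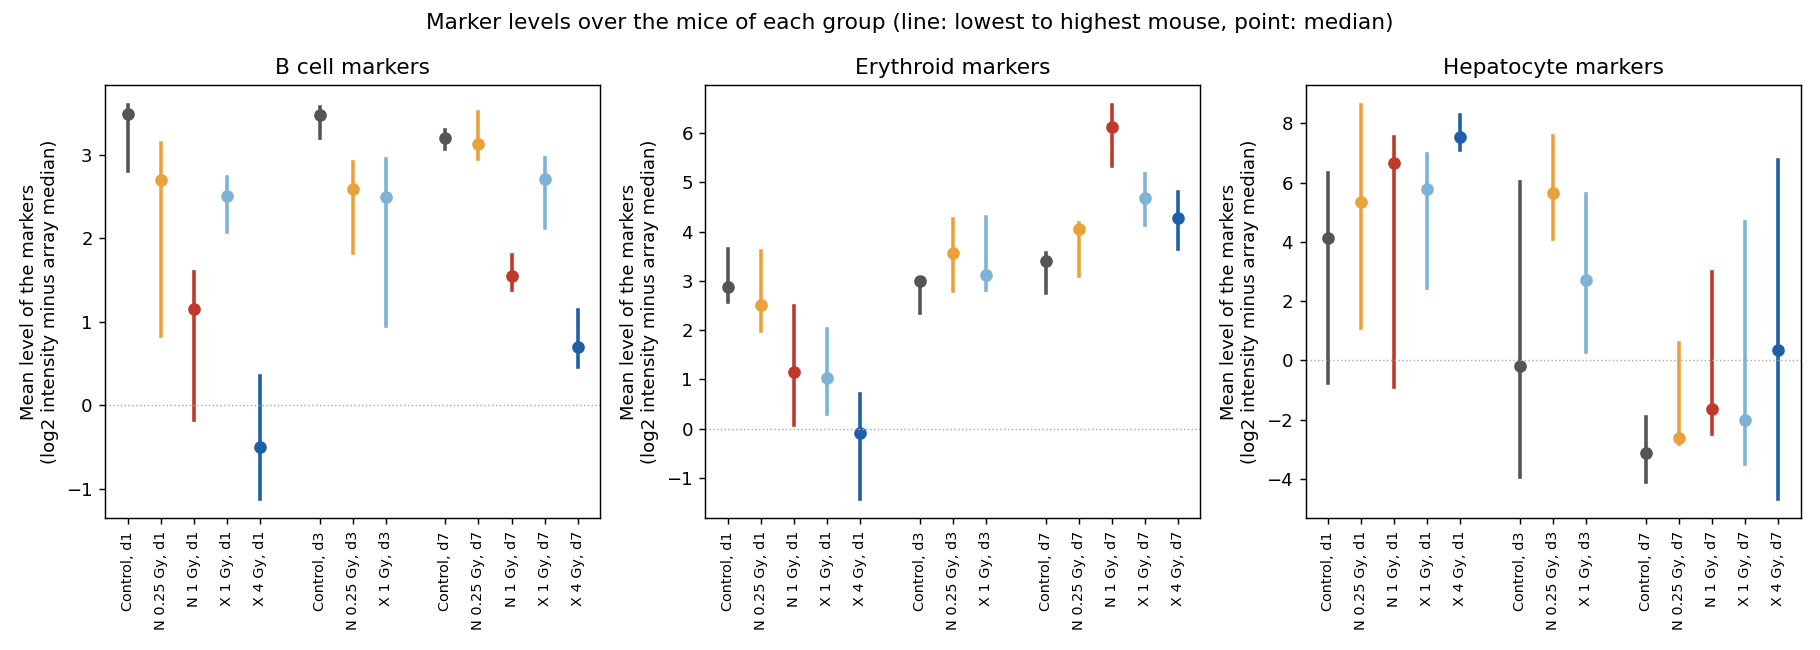
Mean level of the B cell, erythroid and hepatocyte markers (log2 intensity minus the array median, vertical axis) in each exposure group and day (N neutron, X x-ray, d day). Lines run from the lowest to the highest mouse and points mark the median; the B cell markers were lowest after 4 Gy x-ray at day 1 (-1.12 to 0.35) and the erythroid markers highest after 1 Gy neutron at day 7 (5.33 to 6.58).

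At day 1, the question was whether exposure changed these genes against the controls of that day. Ddb2 and Rrm2b fell after 1 Gy neutron and after 4 Gy x-ray, and none of the 7 tested genes rose past the threshold at any dose. Ddb2 was 0.21, 0.45, 0.36, -0.41 and 0.36 in the 5 controls. It was -1.02 at the lowest, -0.94 at the median and -0.81 at the highest of 6 mice after 1 Gy neutron, so every exposed mouse lay below every control. The change was -1.13 ± 0.16 (log2 fold change ± SE, limma adjusted p = 0.000697), or 0.458-fold. After 4 Gy x-ray the 5 mice had -1.14, -1.61, -1.56, -1.52 and -1.35, again below all controls, for a change of -1.63 ± 0.19 (limma adjusted p = 8.13e-05).

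Rrm2b was -2.39, -2.20, -2.09, -2.92 and -2.16 in the controls of day 1, and -3.77, -3.29 and -3.13 at the lowest, median and highest after 1 Gy neutron. The groups did not overlap, and the change was -1.01 ± 0.18 (limma adjusted p = 0.00188). The mice given 4 Gy x-ray had -3.66, -4.23, -4.44, -3.59 and -4.08, 1 of them not well above background. They too lay below all controls, and the change was -1.65 ± 0.22 (limma adjusted p = 0.000172), which turned to 0.08 under normexp background correction. Of all 16098 genes tested, 16.3% passed after 1 Gy neutron (10.7% lower) and 29.4% after 4 Gy x-ray (16.6% lower), against 2 of the 7 members in each, both lower. Values of the 2 comparisons are given side by side because they share the control mice.

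Limits of these day 1 calls lie in background and scaling. Normexp starts from the raw signal, subtracts local background and adds an offset of 50. With it, neither gene passed after 1 Gy neutron (Ddb2 -0.82, Rrm2b -0.63) or 4 Gy x-ray (Ddb2 -0.85). With centring on spike-in RNA neither passed after 1 Gy neutron (Ddb2 -0.85, Rrm2b -0.73). Among the 4 mice of 1 Gy neutron scanned on the same day as the 5 controls, the differences were -1.11 for Ddb2 and -1.09 for Rrm2b. The x-ray arrays shared no scan day with controls, so scan day and x-ray exposure cannot be told apart at day 1. A random block for scan day cannot separate them, and with it the 4 Gy changes were -1.64 for Ddb2 and -1.67 for Rrm2b. With the hepatocyte marker level as a covariate, the 4 Gy change of Rrm2b was -1.30 and no longer passed (limma adjusted p = 0.0257).

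**Figure D2:**
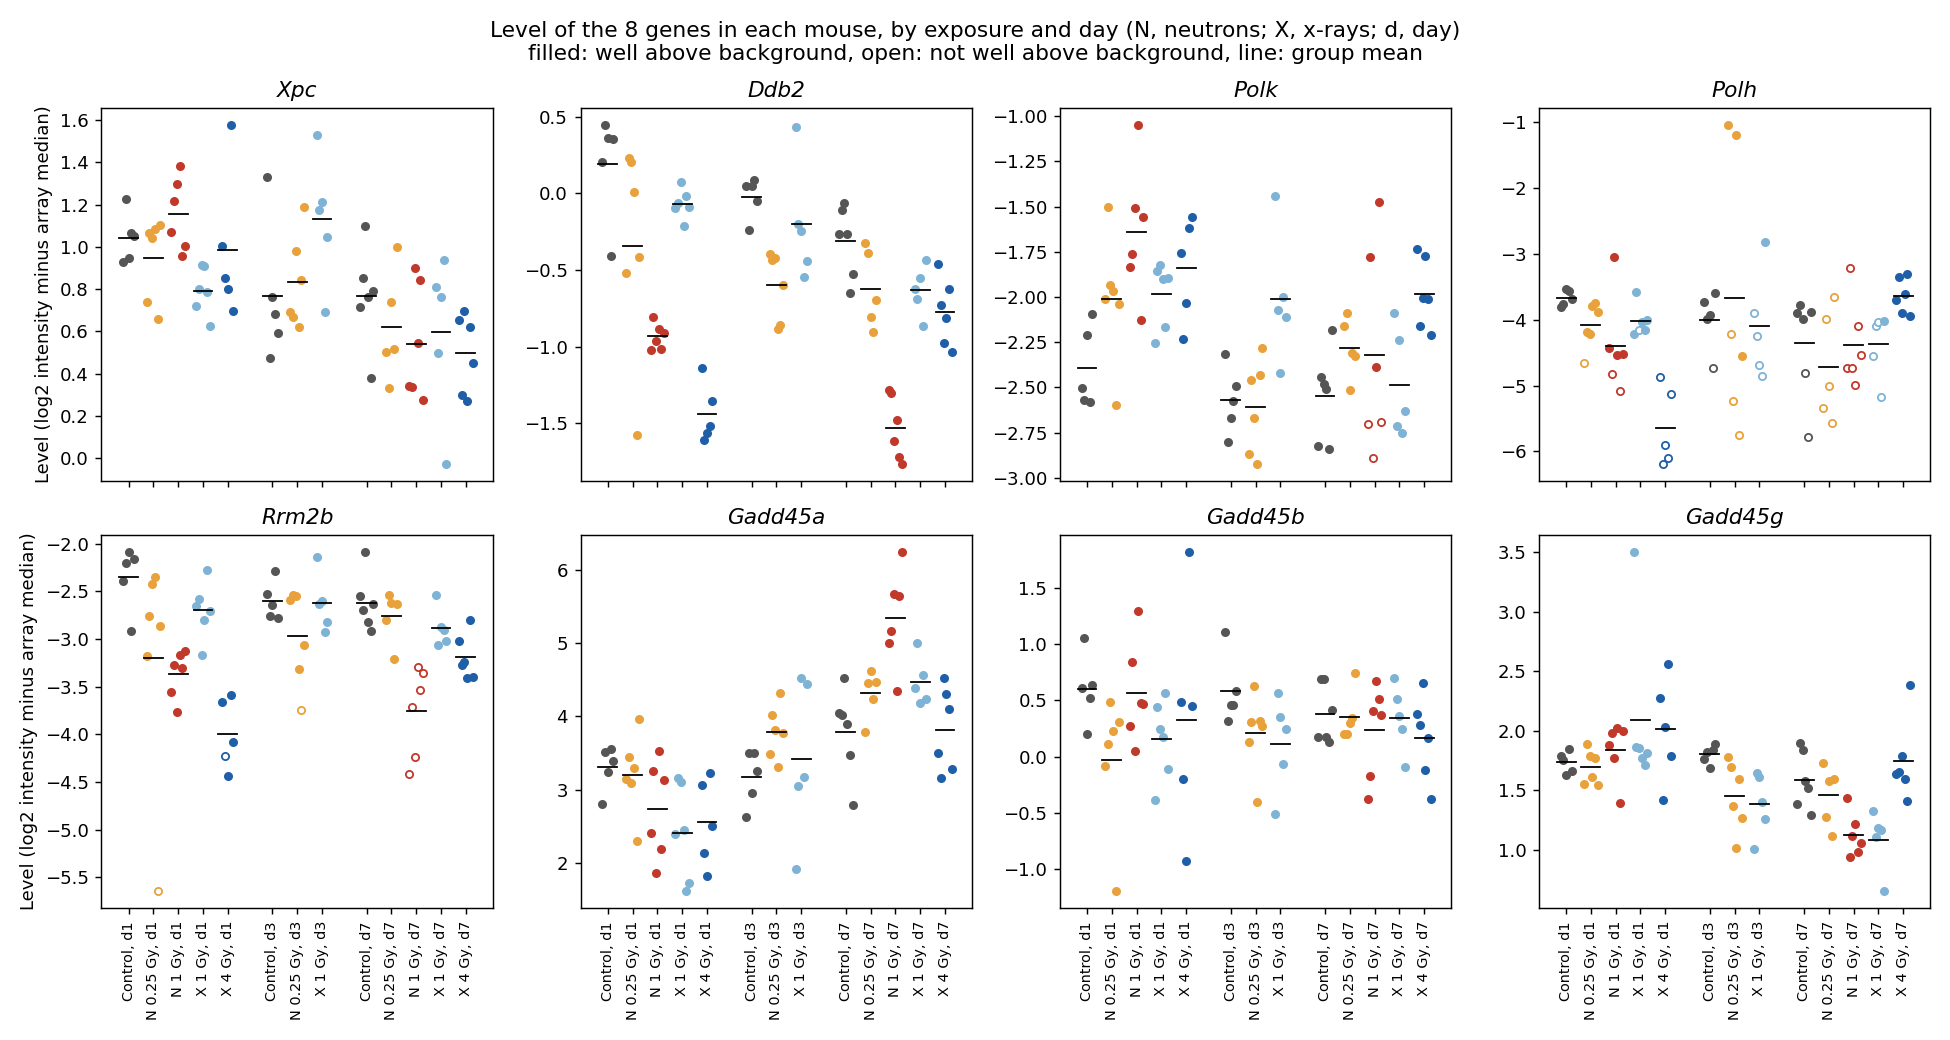
Level of each gene (log2 intensity minus the array median, vertical axis) in every mouse, by exposure group and day (N neutron, X x-ray, d day), with the group mean as a line. Filled points were well above background and open points were not. At day 1 the Ddb2 levels after 1 Gy neutron (-1.02 to -0.81) and 4 Gy x-ray (-1.61 to -1.14) lay below all 5 controls (-0.41 to 0.45).

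No member passed after 1 Gy x-ray at day 1, where 6.45% of all genes did, or after 0.25 Gy neutron, where 0.00621% did. Ddb2 after 1 Gy x-ray was -0.21, -0.07 and 0.08 at the lowest, median and highest of 6 mice. These overlapped the controls only through control replicate 4 (-0.41), the other controls lying from 0.21 to 0.45. The difference of -0.26 had a 95% interval from -0.59 to 0.08, and no member passed for 1 Gy x-ray in any fit that left out 1 mouse. Xpc did not overlap there, at 0.63 to 0.91 against 0.93 to 1.23 in controls, but its difference of -0.25 did not pass (limma adjusted p = 0.119). After 0.25 Gy neutron 1 mouse stood apart, with Ddb2 at -1.58, Rrm2b at -5.65 (not well above background) and Gadd45b at -1.20. Without it the difference from controls was -0.29 instead of -0.54 for Ddb2, -0.36 instead of -0.85 for Rrm2b and -0.40 instead of -0.63 for Gadd45b, and none passed either way.

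Polk was above the controls at every day 1 dose without passing the threshold. The controls had -2.51, -2.57, -2.21, -2.58 and -2.09, and the 1 Gy neutron mice -2.13, -1.66 and -1.05 at the lowest, median and highest, 5 of 6 above all controls. The difference was 0.75 ± 0.19 (limma adjusted p = 0.00959, with the unadjusted p above 0.001), and it was 0.55 after 4 Gy x-ray and 0.41 after 1 Gy x-ray. Leaving out the 1 Gy neutron mouse of replicate 5 gave 0.85, which passed (limma adjusted p = 0.00636). It also passed with quantile normalization (0.81), slide as a random block (0.78), the hepatocyte marker level as a covariate (0.91) and 1 fit over all 13 groups (limma adjusted p = 0.00112).

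The Polh probe was well above background in all 5 controls of day 1, at -3.81, -3.77, -3.53, -3.56 and -3.68, and in none of the 5 mice after 4 Gy x-ray, at -4.87, -6.19, -5.90, -6.10 and -5.13. The groups did not overlap. The bound takes for each array of the dim group the higher of its lowest measurable signal and the probe's own level. Here the probe's own was used, so the bounds equal the differences of group means and carry no error. By them Polh was 3.90-fold lower after 4 Gy x-ray than in controls, 3.05-fold lower than after 1 Gy x-ray and 2.35-fold lower than after 1 Gy neutron. The probe was well above background in 5 of 6 mice after 1 Gy x-ray and in 4 of 6 after 1 Gy neutron. At day 3, 2 of the 6 mice at 0.25 Gy neutron had -1.04 and -1.20, whereas the other 4 lay from -5.75 to -4.22.

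Within the Gadd45 family no member passed at day 1. Gadd45a was 2.81 to 3.56 in controls, with a median of 3.40. Its medians were 2.78 after 1 Gy neutron, 2.42 after 1 Gy x-ray and 2.50 after 4 Gy x-ray, and the ranges overlapped the controls. The differences were -0.57, -0.90 (limma adjusted p = 0.0538) and -0.75 (limma adjusted p = 0.0371). Gadd45g stood at 3.50 in 1 mouse after 1 Gy x-ray, the other 5 being at 1.71 to 1.86, and without it the difference from controls was 0.07 instead of 0.35.

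**Figure D3:**
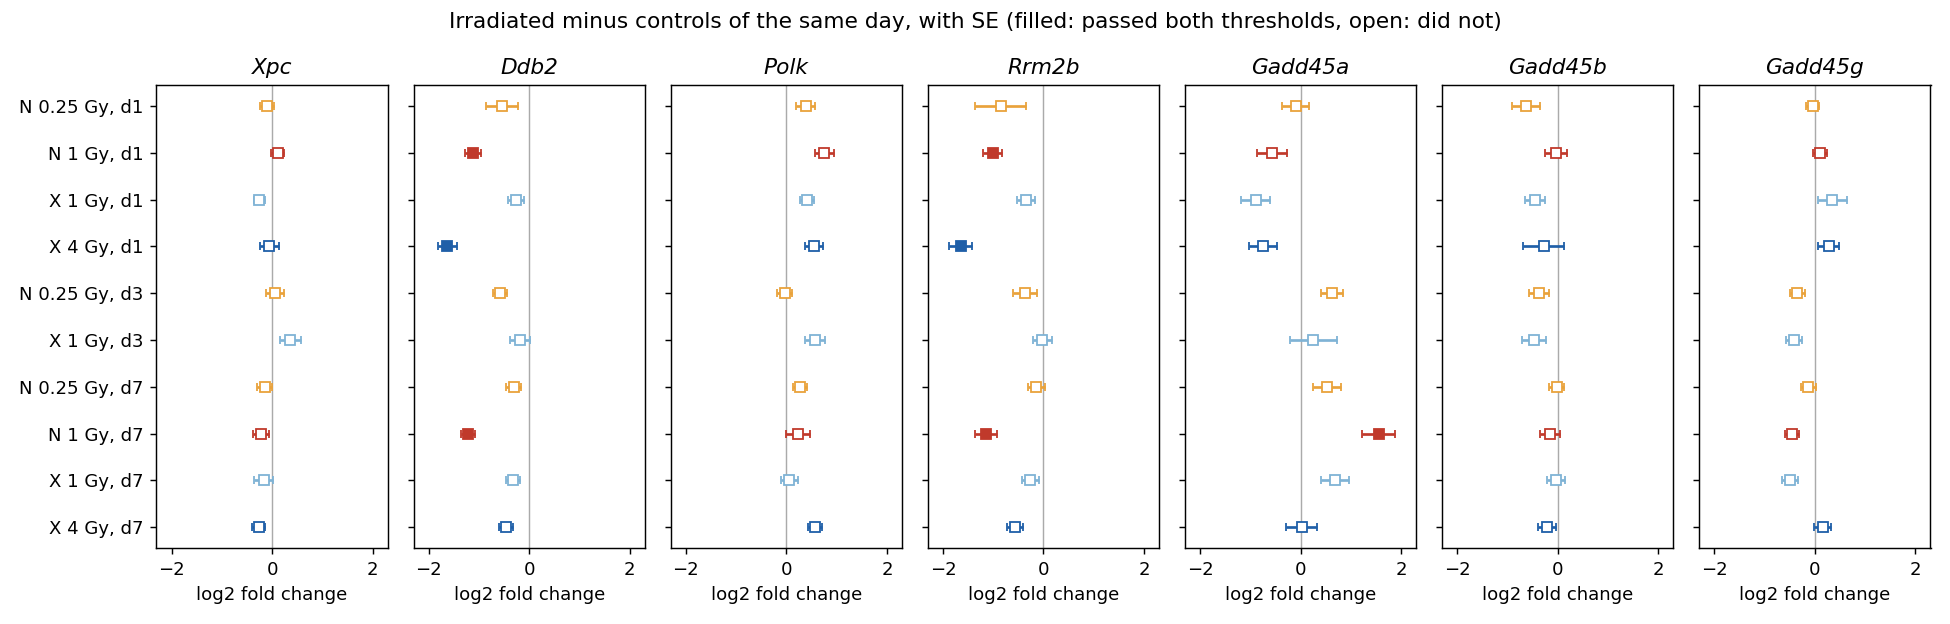
Change of each tested gene against the controls of the same day (log2 fold change, horizontal axis) with its standard error, for the 10 comparisons with controls (N neutron, X x-ray, d day). Filled points passed p below 0.001 and FDR below 0.05: Ddb2 and Rrm2b at day 1 after 1 Gy neutron and after 4 Gy x-ray, both again after 1 Gy neutron at day 7, and Gadd45a after 1 Gy neutron at day 7 (1.55, which turned to -0.55 under spike-in centring).

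At day 3 no member passed after 0.25 Gy neutron, where 1.53% of all genes did, or after 1 Gy x-ray, where 1.56% did. Ddb2 was 0.05, -0.24, 0.05, 0.09 and -0.05 in controls and -0.89, -0.51 and -0.40 at the lowest, median and highest after 0.25 Gy neutron. The groups did not overlap, but the difference of -0.58 ± 0.14 did not pass (limma adjusted p = 0.0654). Gadd45g did not overlap after 1 Gy x-ray, at 1.00 to 1.64 against 1.69 to 1.89 in controls, and its difference of -0.42 did not pass (limma adjusted p = 0.208).

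At day 7, 1 Gy neutron was the exposure with called members: Ddb2 and Rrm2b were lower and Gadd45a higher than in controls, 3 of the 7 tested genes where 36.2% of all genes passed (17.8% lower, 18.4% higher). In the same mice the B cell markers were lower than in every control (1.38 to 1.80 against 3.06 to 3.29), and their part in these values was not tested. Ddb2 was -0.65, -0.27 and -0.06 at the lowest, median and highest of 6 controls and -1.77, -1.55 and -1.29 in the 6 exposed mice. The groups did not overlap and the change was -1.21 ± 0.15 (limma adjusted p = 1.61e-05). With scan day in the fit the change was -0.97 and did not pass (limma adjusted p = 0.0153), and only 1 of the 6 exposed arrays shared a scan day with the controls. Under normexp the change of Ddb2 was -0.23.

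Rrm2b was -2.92, -2.66 and -2.09 in the controls of day 7, and -4.41, -3.62 and -3.29 after 1 Gy neutron, where it was not well above background in any of the 6 mice. The groups did not overlap, and by the same bound on the processed signal, which equals the fitted change, Rrm2b was 2.20-fold lower (limma adjusted p = 0.00062). This does not hold under normexp. There the fitted change of -1.14 ± 0.22 turned to 0.92 (limma adjusted p = 0.0208). It was -0.75 with the hepatocyte marker level as a covariate and then did not pass (limma adjusted p = 0.00556).

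Gadd45a was 2.79, 3.96 and 4.52 at the lowest, median and highest of the day 7 controls and 4.35, 5.40 and 6.24 after 1 Gy neutron. The ranges touched, with 5 of 6 exposed mice above all controls, and the change of 1.55 ± 0.33 (2.93-fold, limma adjusted p = 0.00134) turned to -0.55 when arrays were centred on spike-in RNA. Under that scaling the median of all genes was -2.15, so Gadd45a stayed above the median gene while its own value fell below the controls. It did not pass with dim spots left out (1.01), quantile normalization (0.83), normexp (0.11) or scan day in the fit (1.21, limma adjusted p = 0.118). It also did not pass without control replicate 5 (1.49) or without 1 Gy neutron replicate 3 (1.48) or 5 (1.49). The erythroid markers rose in the same comparison, 6 of 6, and their part in the Gadd45a value was not tested.

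No member passed after the other day 7 exposures: 0.25 Gy neutron, where 0.547% of all genes did, 1 Gy x-ray, where 3.74% did, and 4 Gy x-ray, where 15.8% did. Ddb2 after 4 Gy x-ray was -1.03, -0.77 and -0.46 at the lowest, median and highest, overlapping the controls, and differed by -0.46 (limma adjusted p = 0.0235). Rrm2b differed by -0.57 (limma adjusted p = 0.0146) and Polk by 0.56 (limma adjusted p = 0.00861), with 5 of 6 mice on 1 side of all controls for each. Without control replicate 6 the Polk difference was 0.64 and passed (limma adjusted p = 0.0048). Gadd45a after 4 Gy x-ray was 3.16, 3.81 and 4.52, and its difference of 0.02 had a 95% interval from -0.65 to 0.68. The x-ray arrays of 4 Gy at day 7 came from a single scan day with no controls, and those of 1 Gy shared no scan day with controls. So scan day and exposure cannot be told apart for either x-ray dose there. Polh was well above background in all 6 mice after 4 Gy x-ray and in none after 0.25 Gy or 1 Gy neutron.

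Xpc and Gadd45b passed in none of the 10 comparisons with controls, and neither did Polk and Gadd45g. The 95% intervals of their differences lay within -0.58 to 0.84 for Xpc, -1.25 to 0.62 for Gadd45b, -0.38 to 1.17 for Polk and -0.85 to 0.98 for Gadd45g. In the control mice no member passed between day 1 and day 7, where 4.39% of all genes did and where scan day and day cannot be told apart. Ddb2 came nearest, at -0.51 (limma adjusted p = 0.0674), and it passed without control replicate 4 of day 1 (-0.66, limma adjusted p = 0.0247), the lowest Ddb2 value of that group.

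Radiation type and dose were then compared directly, without controls. By the study's methods the neutron beam also delivered gamma rays, x-rays were given at a much higher dose rate, and sham mice followed the neutron procedure. So radiation type cannot be told apart from these features of the exposures. At a nominal dose of 1 Gy on day 1, Ddb2 was lower after neutrons than after x-rays by -0.87 ± 0.10 (limma adjusted p = 0.000473), with no overlap, where 9.62% of all genes passed. The 95% interval was -1.08 to -0.66. Rrm2b differed by -0.67 (limma adjusted p = 0.0123) and did not pass, and Xpc did not overlap (0.96 to 1.39 after neutrons, 0.63 to 0.91 after x-rays) with a difference of 0.36 that did not pass (limma adjusted p = 0.0359). With scan day in the fit the Ddb2 difference was -0.86 (limma adjusted p = 0.0674), and it did not pass with slide in the fit either (-0.87, limma adjusted p = 0.805), under normexp (-0.61) or under spike-in centring (-0.63). Without 1 Gy x-ray replicate 3, Rrm2b passed as well (-0.76, limma adjusted p = 0.00811).

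Between x-ray doses on day 1, Ddb2 was lower at 4 Gy than at 1 Gy, with a difference of -1.37 ± 0.13 (limma adjusted p = 4.09e-05), and the groups did not overlap. Rrm2b differed by -1.30 ± 0.20 (limma adjusted p = 0.00066), also with no overlap, and 16.1% of all genes passed. Neither passed with scan day in the fit (Ddb2 -1.04, Rrm2b -1.05), where 1 array of 4 Gy shared a day with 4 of 1 Gy. Under normexp Ddb2 was -0.64 and did not pass, and Rrm2b turned to 0.41. In 1 Gy neutron against 4 Gy x-ray on day 1, where 0.0311% of all genes passed, no member passed. Ddb2 nonetheless did not overlap there, and the difference of 0.50 had a 95% interval from 0.21 to 0.79 (limma adjusted p = 0.16), while that of Rrm2b was 0.64 with an interval from 0.21 to 1.06.

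At day 7, Ddb2 after 1 Gy neutron lay below every mouse of 1 Gy x-ray by -0.90 ± 0.14 (limma adjusted p = 0.000984), where 20% of all genes passed, and did not pass with slide in the fit (-1.15, limma adjusted p = 0.0403) or with the replicate number as a block (-0.85, limma adjusted p = 0.018). It lay below every mouse of 4 Gy x-ray by -0.76 ± 0.14 (limma adjusted p = 0.00051), where 37.3% passed. Under normexp these Ddb2 differences turned to 0.07 and 0.08. Gadd45a was 1.53 ± 0.32 higher after 1 Gy neutron than after 4 Gy x-ray (limma adjusted p = 0.0011), which turned to -0.79 under spike-in centring, and 0.87 higher than after 1 Gy x-ray, which did not pass (limma adjusted p = 0.0306). With scan day in the fit, the differences from 4 Gy x-ray were 2.43 for Gadd45a and -0.99 for Ddb2, and neither passed. Both rest on the 1 neutron array that shared a scan day with 4 Gy x-ray. Its Gadd45a level of 6.24 was the highest of its group. The Gadd45a difference also did not pass under normexp (0.28), quantile normalization (0.80) or with dim spots left out (0.97). Leaving out 1 Gy neutron replicate 3 or 5, or 4 Gy x-ray replicate 1, 2 or 6, ended the Gadd45a call, with values from 1.40 to 1.47.

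Rrm2b at day 7 lay below every mouse of 1 Gy x-ray after 1 Gy neutron, by -0.88 that turned to 1.05 under normexp, and did not pass (limma adjusted p = 0.00732). Since no mouse of 1 Gy neutron was well above background there, the bound on the processed signal, 1.84-fold lower, rests on dim signal. Without 1 Gy neutron replicate 4 the Rrm2b difference was -0.97 and passed (limma adjusted p = 0.00387). Gadd45g was lower after 1 Gy neutron than after 4 Gy x-ray by -0.62 (limma adjusted p = 0.00538) and higher after 4 Gy than after 1 Gy x-ray by 0.66, without overlap (limma adjusted p = 0.027), and neither passed. Between the x-ray doses at day 7, where 7.81% of all genes passed, no member did. The Polh levels did not overlap there, at -3.94 to -3.31 after 4 Gy and -5.18 to -4.02 after 1 Gy.

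Between neutron doses at day 7, Ddb2 was lower at 1 Gy than at 0.25 Gy by -0.90 ± 0.15 (limma adjusted p = 0.000482), with no overlap, where 28% of all genes passed. It did not pass with scan day (-0.66) or slide (-0.48) in the fit, or under normexp (-0.19). Only 1 array of 1 Gy shared a scan day with 0.25 Gy arrays, and only 1 shared a slide. Rrm2b, not well above background in the 1 Gy group, was 2.00-fold lower by the bound on the processed signal (limma adjusted p = 0.00295), also without overlap. The difference was -0.0685 under normexp and -0.69 with quantile normalization and passed in neither. That Rrm2b call was kept in 3 of 11 fits that each left out 1 mouse, with values from -1.11 to -0.87. Without 1 Gy neutron replicate 4, Gadd45a passed too (1.23, limma adjusted p = 0.0014). At day 1, where 1.62% of all genes passed, no member did, but Ddb2 passed without the mouse of 0.25 Gy neutron that stood apart (-0.83, limma adjusted p = 0.00487).

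In 0.25 Gy neutron against 1 Gy x-ray no member passed at day 1, 3 or 7, where 3.94%, 0% and 0.236% of all genes passed. The 95% interval of the Ddb2 difference was -0.86 to 0.30 at day 1 and -0.32 to 0.33 at day 7. Of the 21 unadjusted intervals 3 left out 0, those of Gadd45a at day 1 (0.80, from 0.10 to 1.49), Polk at day 3 (-0.60, from -1.05 to -0.14) and Gadd45g at day 7 (0.37, from 0.00797 to 0.73).

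The change of an effect between days was tested as a difference of differences. For 4 Gy x-ray, where 19.8% of all genes passed, the Ddb2 change from controls went from -1.63 at day 1 to -0.46 at day 7, a difference of 1.17 ± 0.23 (limma adjusted p = 0.000498) that was 0.55 and did not pass under normexp (limma adjusted p = 0.34). Rrm2b went from -1.65 to -0.57, a difference of 1.08 ± 0.27 (limma adjusted p = 0.00334) that turned to -0.22 under normexp and was kept in 11 of 22 fits that each left out 1 mouse. For 1 Gy neutron, where 24.1% passed, Ddb2 was -1.13 at day 1 and -1.21 at day 7, and the difference of -0.09 had a 95% interval from -0.52 to 0.34. Gadd45a went from -0.57 to 1.55, a difference of 2.12 ± 0.47 (limma adjusted p = 0.000928) that turned to -0.26 under spike-in centring. It did not pass with scan day in the fit (1.75, limma adjusted p = 0.0686), under normexp (0.67) or with dim spots left out (1.55).

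A direct test, added after the data were seen, compared the day 7 minus day 1 difference of 1 Gy neutron with that of 4 Gy x-ray, where 21.3% of all genes passed. Ddb2 differed by -1.26 ± 0.18 (limma adjusted p = 2.27e-05) and Rrm2b by -1.20 ± 0.29 (limma adjusted p = 0.00218), and both turned positive under normexp (0.05 and 1.78). With scan day in the fit neither passed, at -1.17 for Ddb2 (limma adjusted p = 0.0319) and -0.62 for Rrm2b (limma adjusted p = 0.444). The Rrm2b difference did not pass without 4 Gy x-ray replicate 2 of day 1 (-1.15) or replicate 3 (-1.09). Gadd45a differed by 1.35 and did not pass (limma adjusted p = 0.0333). For 0.25 Gy neutron and 1 Gy x-ray, where 0.752% and 7.19% of all genes passed, no member did, although the Gadd45a difference for 1 Gy x-ray was 1.58 (limma adjusted p = 0.0147). It passed without control replicate 1 of day 1 (1.70), control replicate 3 of day 7 (1.72), or 1 Gy x-ray replicate 2 (1.73) or 3 (1.72) of day 1.

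**Figure D4:**
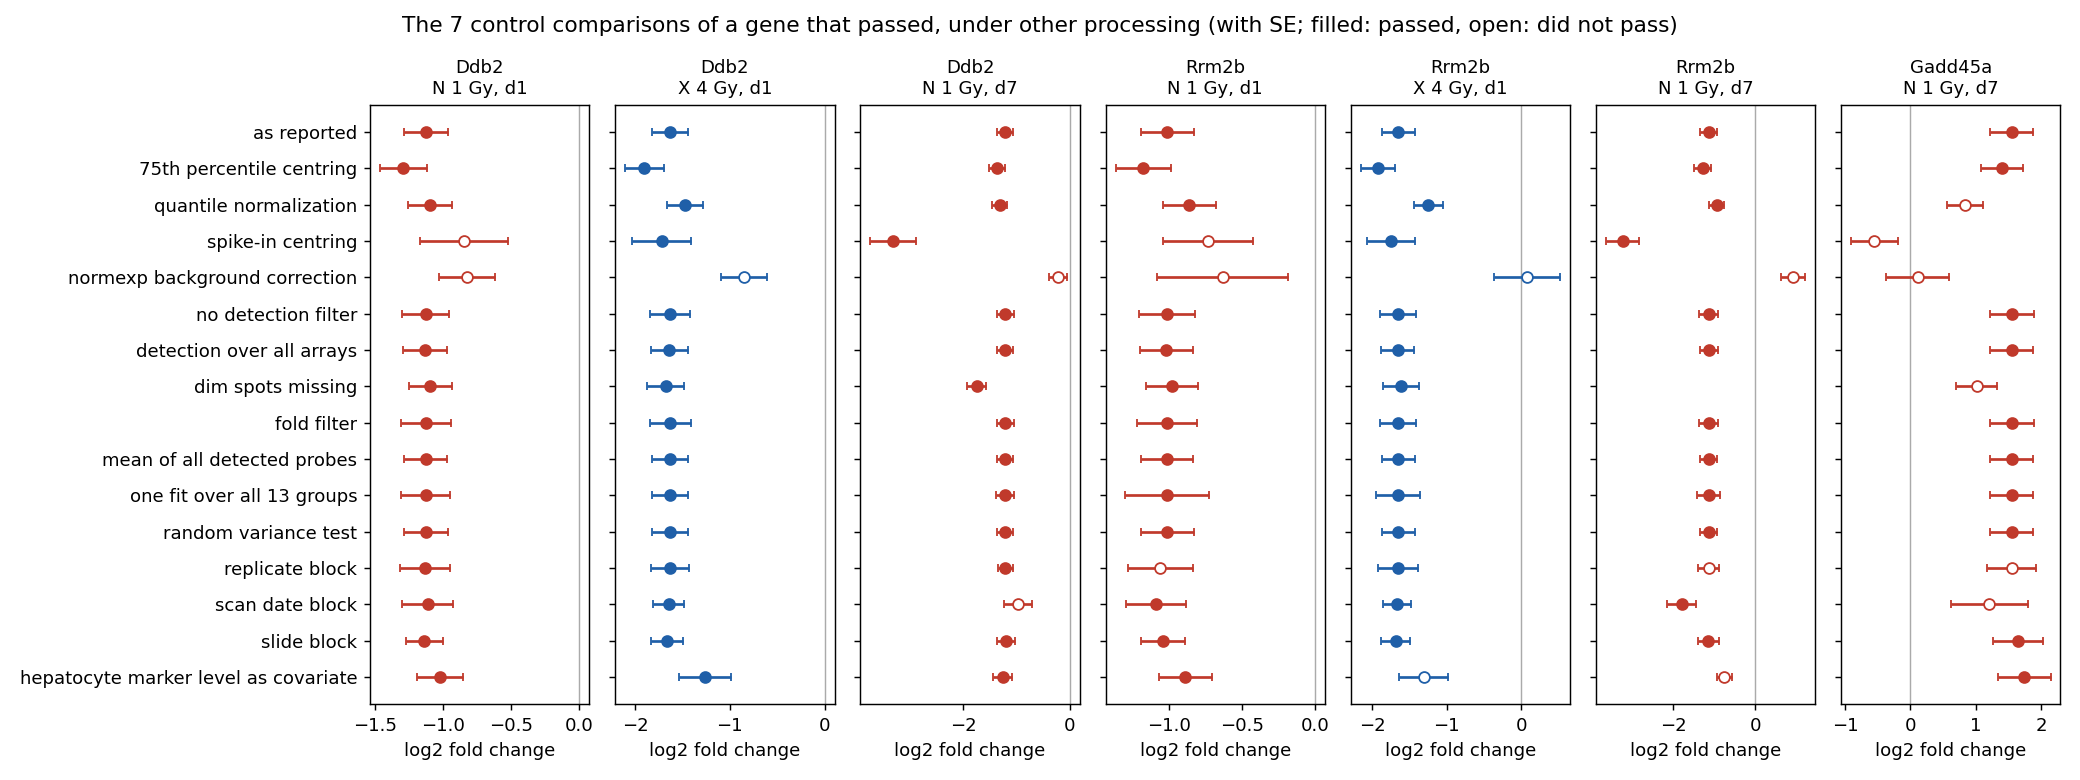
Change of Ddb2, Rrm2b and Gadd45a against controls (log2 fold change, horizontal axis) under each way of processing the arrays (vertical axis), for the comparisons in which each passed. Filled points passed both thresholds and open points did not; Rrm2b after 1 Gy neutron at day 7 turned to 0.92 under normexp and Gadd45a to -0.55 under spike-in centring.

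Ordered by group mean, few neighbouring groups of the 13 were further apart than the larger of their SDs. Ddb2 had 1 such gap in 12, between 1 Gy neutron at day 1 (-0.93 ± 0.08 SD, n = 6) and the 4 Gy x-ray group of that day (-1.44 ± 0.19, n = 5). Gadd45a had 1, between 1 Gy neutron at day 7 (5.34 ± 0.66, n = 6) and the next group, 1 Gy x-ray at day 7. The 1 gap of Polh lay between groups in which no mouse was well above background, so it gives no order, and the other 5 genes had 0.

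Across the 72 arrays, Ddb2 and Rrm2b levels had a Pearson correlation of 0.83, and Gadd45a and Gadd45g one of -0.47. Every other pair of tested members lay between -0.32 and 0.43. The genes most like each member over the same arrays were Gm9856 (0.93) and AU015680 (0.92) for Ddb2, Slc25a53 (0.89) and Malt1 (0.89) for Rrm2b, and Cript (0.94) for Gadd45a, beside a probe without a gene name (0.94). Arid3a (0.85) was most like Gadd45b, Ip6k1 (0.79) and Rab4b (0.78) like Xpc, and LOC105244782 (0.75) and Itgb1 (0.75) like Polk. For Gadd45g the highest correlation was 0.59. These arrays share exposure groups, scaling and blood composition, so the correlations describe the arrays only.

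Other genes of the same pathways were read from lists of p53 targets, nucleotide excision repair, translesion synthesis, deoxynucleotide supply and GADD45 partners. The lists overlap and hold the members themselves. After 0.25 Gy neutron none of the genes in these lists passed at any day. Of all genes, 0.00621%, 1.53% and 0.547% passed there at days 1, 3 and 7. Of 28 p53 targets tested, 12 rose and 1 fell after 1 Gy neutron at day 1, with a median of 0.79 against -0.08 over all genes, of which 16.3% passed. Among them were Cdkn1a, the cell cycle inhibitor p21 (4.20), Psrc1 (2.67) and Phlda3, an inhibitor of AKT (2.32). After 1 Gy x-ray, where 6.45% of all genes passed, 9 rose and 0 fell, with a median of 0.58 against 0.00, led by Cdkn1a (3.11), Psrc1 (2.42) and Phlda3 (1.58).

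After 4 Gy x-ray at day 1, 14 p53 targets rose and 1 fell where 29.4% of all genes passed, with a median of 0.87 against -0.09, led by Cdkn1a (4.15), Perp (3.54) and Dcxr (3.27). So Cdkn1a rose in the same mice in which Ddb2 and Rrm2b fell. At day 7 after 4 Gy x-ray 8 rose and 1 fell where 15.8% of all genes passed (median 0.49 against -0.05), with Cdkn1a at 3.07, Psrc1 at 1.73 and Zmat3 at 1.5. At day 7 after 1 Gy neutron 3 of the 28 rose and 4 fell, where 18.4% of all genes were higher and 17.8% lower (median -0.15 against -0.05). Cdkn1a (1.45) and Psrc1 (1.92) were among the higher genes, with values of -0.65 and -0.19 under spike-in centring. Ephx1 (-1.61) was among the lower, with 0.22 when all its detected probes were averaged. After 1 Gy x-ray at day 7, where 3.74% of all genes passed, Tigar (-0.57) was the 1 target that passed (median 0.11 against -0.03). At day 3, where 1.56% of all genes passed, 2 of the targets rose.

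Of 32 nucleotide excision repair genes, 4 fell and 0 rose after 1 Gy neutron at day 1, where 10.7% of all genes were lower, with a median of -0.34 against -0.08. They included the ubiquitin ligase scaffold Cul4a (-2.07), Ddb2 and the single-strand binding protein Rpa1 (-1.06). At 4 Gy of x-rays 9 fell and 2 rose, where 16.6% of all genes were lower (median -0.55 against -0.09). Cul4a was at -2.41, the ligase Lig1 at -2.35 and the TFIIH subunit Gtf2h5 at 2.18. After 1 Gy x-ray, where 6.45% of all genes passed, 2 fell (median -0.11), among them Cul4a (-2.24).

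At day 7 after 1 Gy neutron 13 of the 32 excision repair genes fell and 4 rose, where 17.8% of all genes were lower and 18.4% higher (median -0.46 against -0.05), and Cul4a (2.75) and Lig1 (2.52) were among the higher genes. After 1 Gy x-ray at day 7, where 3.74% of all genes passed, Cul4a (1.51) rose and the helicase Ercc2 (-0.66) fell (median -0.12 against -0.03). Ercc2 (-0.84) and Ercc8 (-0.75) fell after 4 Gy x-ray at day 7, where 15.8% of all genes passed (median -0.09 against -0.05). Erythroid marker levels in these groups were 0.07 to 2.49 after 1 Gy neutron, 0.30 to 2.03 after 1 Gy x-ray and -1.42 to 0.70 after 4 Gy x-ray at day 1, against 2.56 to 3.65 in controls, and at day 7, against 2.75 to 3.57 in controls, they were higher after 1 Gy neutron (5.33 to 6.58), 1 Gy x-ray (4.13 to 5.17) and 4 Gy x-ray (3.65 to 4.81). Their part was not tested.

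Of 15 translesion synthesis genes, 7 fell and 1 rose after 1 Gy neutron at day 1, where 10.7% of all genes were lower, with a median of -0.57 against -0.08. Ube2b (-1.68) and Rad18 (-1.31), the enzymes that ubiquitinate PCNA at stalled forks, and the polymerase iota gene Poli (-1.23) led them. At 4 Gy of x-rays 6 fell and 1 rose, where 16.6% of all genes were lower (median -0.75 against -0.09), with Ube2b at -2.51, Rad18 at -1.47 and Shprh at -1.89, which was 0.09 under normexp. After 1 Gy x-ray, where 6.45% of all genes passed, Ube2b (-1.51) was the 1 gene that passed (median -0.09 against 0.00). At day 7 after 1 Gy neutron 2 rose, Rad18 (2.61) and Ube2b (2.41), and 4 fell, among them Shprh (-1.51, and 1.00 under normexp). There 18.4% of all genes were higher and 17.8% lower (median -0.42 against -0.05). Rad18 (1.38) and Ube2b (0.97, and -0.05 under spike-in centring) also rose after 1 Gy x-ray at day 7, where 3.74% of all genes passed (median 0.04). After 4 Gy x-ray at day 7, where 15.8% passed, Ube2a (0.53) rose and Rev1 (-0.49) fell (median -0.17).

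Of 13 genes of deoxynucleotide supply, Rrm2b was the 1 that passed after 1 Gy neutron at day 1, where 16.3% of all genes passed (median 0.12 against -0.08). None did after 1 Gy x-ray at day 1 or day 7, where 6.45% and 3.74% of all genes did (medians 0.26 and -0.18). After 4 Gy x-ray at day 1, where 29.4% passed, 2 rose, the thymidine kinase Tk1 (2.69) and Dctpp1 (1.44), and 2 fell (median 0.04). At day 7 Rrm2, the subunit used by replicating cells, rose by 2.09 after 1 Gy neutron, which was -0.00859 under spike-in centring. There 5 fell, including Rrm2b and the mitochondrial kinase Tk2 (-1.14), where 17.8% of all genes were lower and 18.4% higher (median -0.27). Rrm2 also rose after 4 Gy x-ray at day 7 (1.77), with Tk1 (1.27) and Dctpp1 (0.85). These were 3 genes in all against 1 that fell, where 15.8% of all genes passed (median 0.01). At day 3 after 1 Gy x-ray, where 1.56% passed, 1 gene rose.

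Of 10 GADD45 partners, Cdkn1a and Cdk1 (0.90, and -0.00133 under normexp) rose after 1 Gy neutron at day 1, where 16.3% of all genes passed (median 0.28 against -0.08). After 1 Gy x-ray, where 6.45% passed, 3 rose, Cdkn1a, Cdk1 (1.84) and Ccnb1 (1.22), with a median of 0.40. At 4 Gy of x-rays, where 29.4% of all genes passed, 4 rose, including the p38 kinase Mapk14 (0.93) and its activator Map2k6 (1.00), with a median of 0.72. At day 7 after 1 Gy neutron, where 36.2% of all genes passed, Map2k3 (2.33) and Cdkn1a rose and Map3k4 (-0.89), the kinase that GADD45 proteins bind, fell (median -0.22). Map3k4 (-0.51) was the 1 partner that passed after 1 Gy x-ray at day 7, where 3.74% of all genes passed (median 0.13). After 4 Gy x-ray at day 7, where 15.8% passed, Cdkn1a, Cdk1 (1.95) and Ccnb1 (1.48) rose (median 0.38). At day 3 after 1 Gy x-ray, where 1.56% passed, 1 partner rose.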

How the data were processed

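Mouse blood RNA was labelled with Cy3 and hybridised to one-colour Agilent 4x44K arrays. The authors extracted the spot intensity with Agilent Feature Extraction 12.0.2 (per the labels), and the deposited processed intensity is already background-subtracted. A series value table of deposited log2 values was used as an alternative for 1 comparison only, because only 12 of its 72 columns followed their own array. Each array held 44397 spots, 1377 of them controls. Outlier spots were left out, spots of 1 probe were averaged, log2 was taken, and the median over detected probes was subtracted within every array. A probe counted as detected if fewer than 25% of its spots were flagged or dim over the 56 arrays of days 1 and 7. The brightest detected probe stood for a gene, 28330 of 39429 probes being named by accession, which left 16098 genes.

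The compared groups alone entered limma 3.58.1 in R 4.3.3 (2-sided), in 27 comparisons. A gene passed when its p was under 0.001 and its adjusted p (Benjamini-Hochberg, all genes) under 0.05. The bound for a dim probe compares the measured mean of the brighter group with, per array, the higher of the lowest signal well above background and the dim probe's own. The bounds given here used the probe's own signal, so they equal differences of group means. On simulated data for 1 Gy neutron at day 1, limma recovered 47% of log2 changes of 1 and 88% of log2 changes of 2 among 16098 genes. The number of mice limits the precision, and p-values measure the spread between mice, 1 array each. Alternatives changed the centring, background, detection, probe choice, blocks and test, and left out each mouse. Normexp added an offset of 50, and no other offset was tried. Median array intensity was 9.52 to 16.8 after 1 Gy neutron at day 7 and 32.2 to 50.5 in day 7 controls. How far the normexp values of dim probes rest on that offset was not tested.

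The members, marker genes and gene lists were chosen with earlier results of these data known. Named were the members in every comparison, for each list the 3 called genes with the greatest change in each 1 Gy neutron, 1 Gy x-ray and 4 Gy x-ray comparison with controls at days 1 and 7, and for each member the 2 features most correlated with it. One gene that this rule names is not reported here, though the counts and medians of its list include it.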

Additional observations from a re-analysis of the deposited data

Results flagged for a closer look

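Among the 104 pairs of gene and group, 7 held a mouse far from the others of its group by Dixon's test, which chance gives in about 1 of 20 groups. They were Ddb2 in day 1 control replicate 4 (-0.41), Polh in 1 Gy neutron replicate 3 of day 1 (-3.05), Polh in 1 Gy x-ray replicate 2 of day 1 (-3.58), Rrm2b in 0.25 Gy neutron replicate 5 of day 1 (-5.65), Gadd45b in the same mouse (-1.20), Gadd45b in 0.25 Gy neutron replicate 5 of day 7 (0.74) and Gadd45g in 1 Gy x-ray replicate 1 of day 1 (3.50).

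A member passed in 5 tests of a change between day 7 and day 1. For the effect of 4 Gy x-ray, where 19.8% of all genes passed, the difference was 1.17 for Ddb2 and 1.08 for Rrm2b. Under normexp these were 0.55, which did not pass, and -0.22. For the effect of 1 Gy neutron, where 24.1% passed, it was 2.12 for Gadd45a and -0.26 under spike-in centring. The other tests were the comparison of 1 Gy neutron with 4 Gy x-ray added after the data were seen, where 21.3% passed. There the change over days differed by -1.26 for Ddb2 and by -1.20 for Rrm2b, which turned to 0.05 and 1.78 under normexp.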

How the results depend on the processing

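Detection over all arrays, the mean of all detected probes and the random variance test kept all 27 counts of called members on the same side. Each tested member had a single detected probe, so the mean could not change its values. The random variance test recovered the same 47% and 88% as limma on the simulated data for 1 Gy neutron at day 1. Its equal counts are therefore no separate check. Leaving out the 7 day 7 arrays with a hepatocyte marker level above 0 kept the counts in 4 of 4 comparisons. The authors' value table served only for 0.25 Gy neutron against control at day 1, where 0 members passed in the main fit. Its equal count there does not bear on any call. Of the counts, normexp changed 12, spike-in centring 11 and scan day 8 of 23, and the cause was not tested. Scan day was a fixed block in 15 comparisons and a random one in 8. It was not run in 4 comparisons whose arrays lay on 1 scan day, or where each group had a scan day of its own. X-ray and control arrays shared no scan day at day 1, 3 or 7, so no block separates scan day from exposure there. Spike-in centring moved the median of all genes by -2.74 to 1.2. The replicate numbers did not pair the mice, since same-numbered mice correlated from -0.53 to 0.64 and no comparison had every pair above 0.1. Counts also moved by 1.5 times or less. With 1 Gy neutron against control at day 1 it was 3 (main 2, Polk added) for the hepatocyte covariate, 1 fit over all groups, quantile normalization and slide. At day 7 it was 2 (main 3) for the hepatocyte covariate and quantile normalization. It was 3 (main 2) for 4 Gy x-ray against control at day 1 with quantile normalization (Polk added), for 1 Gy neutron against 4 Gy x-ray at day 7 with 75th percentile centring (Gadd45g added), and in 4 comparisons with no detection filter, where Polh was tested too. Equal counts can hold different genes: with dim spots left out, Gadd45a was lost and Xpc and Gadd45g gained for 1 Gy neutron against control at day 7. Polh, Rrm2b after 1 Gy neutron at day 7 and other dim probes are limited by signal over background.

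The number of members that passed moved by over 1.5 times as follows, where over days means the day 7 effect minus the day 1 effect. With 75th percentile centring it was 1 (main 0) for 0.25 Gy neutron against control at day 3 and for 1 Gy x-ray over days, 2 (main 1) for 1 Gy neutron against 1 Gy x-ray at day 1 and for 1 Gy neutron against 1 Gy x-ray at day 7. With dim spots left out it was 2 (main 1) for 1 Gy neutron over days, 1 (main 2) for 1 Gy neutron against 4 Gy x-ray over days and for 4 Gy x-ray over days. With a fold filter it was 1 (main 2) for 1 Gy neutron against 0.25 Gy neutron at day 7. With the hepatocyte marker level as a covariate it was 2 (main 1) for 1 Gy neutron against 1 Gy x-ray at day 7, 1 (main 0) for 1 Gy x-ray over days, 1 (main 2) for 4 Gy x-ray against control at day 1. With no detection filter it was 1 (main 2) for 1 Gy neutron against 0.25 Gy neutron at day 7. With normexp background correction it was 3 (main 0) for 0.25 Gy neutron against 1 Gy x-ray at day 7, 0 (main 1) for 1 Gy neutron over days and for 1 Gy neutron against 1 Gy x-ray at day 1, 0 (main 2) for 1 Gy neutron against 4 Gy x-ray over days, 1 Gy neutron against control at day 1, 1 Gy neutron against 0.25 Gy neutron at day 7, 1 Gy neutron against 4 Gy x-ray at day 7, 4 Gy x-ray over days, 4 Gy x-ray against control at day 1 and for 4 Gy x-ray against 1 Gy x-ray at day 1, 0 (main 3) for 1 Gy neutron against control at day 7, 2 (main 1) for 1 Gy neutron against 1 Gy x-ray at day 7. With 1 fit over all 13 groups it was 1 (main 2) for 1 Gy neutron against 4 Gy x-ray over days and for 4 Gy x-ray over days. With quantile normalization it was 1 (main 2) for 1 Gy neutron against 4 Gy x-ray over days, 1 Gy neutron against 0.25 Gy neutron at day 7, 1 Gy neutron against 4 Gy x-ray at day 7 and for 4 Gy x-ray over days, 1 (main 0) for 1 Gy x-ray over days. With the replicate number as a block it was 1 (main 2) for 1 Gy neutron against control at day 1, 1 Gy neutron against 0.25 Gy neutron at day 7, 1 Gy neutron against 4 Gy x-ray at day 7 and for 4 Gy x-ray over days, 1 (main 3) for 1 Gy neutron against control at day 7, 0 (main 1) for 1 Gy neutron against 1 Gy x-ray at day 7, 1 (main 0) for 1 Gy x-ray over days. With scan day as a block it was 0 (main 1) for 1 Gy neutron over days and for 1 Gy neutron against 1 Gy x-ray at day 1, 0 (main 2) for 1 Gy neutron against 4 Gy x-ray over days, 1 Gy neutron against 4 Gy x-ray at day 7 and for 4 Gy x-ray against 1 Gy x-ray at day 1, 1 (main 3) for 1 Gy neutron against control at day 7, 1 (main 2) for 1 Gy neutron against 0.25 Gy neutron at day 7, 1 (main 0) for 1 Gy x-ray against control at day 3. With slide as a block it was 0 (main 1) for 1 Gy neutron against 1 Gy x-ray at day 1 and for 1 Gy neutron against 1 Gy x-ray at day 7, 2 (main 0) for 1 Gy neutron against 4 Gy x-ray at day 1, 0 (main 2) for 1 Gy neutron against 0.25 Gy neutron at day 7 and for 4 Gy x-ray against 1 Gy x-ray at day 1. With spike-in centring it was 1 (main 0) for 0.25 Gy neutron against control at day 7, 6 (main 1) for 1 Gy neutron over days, 6 (main 2) for 1 Gy neutron against 4 Gy x-ray over days and for 1 Gy neutron against 4 Gy x-ray at day 7, 0 (main 2) for 1 Gy neutron against control at day 1 and for 4 Gy x-ray against 1 Gy x-ray at day 1, 0 (main 1) for 1 Gy neutron against 1 Gy x-ray at day 1, 6 (main 3) for 1 Gy neutron against control at day 7, 2 (main 1) for 1 Gy neutron against 1 Gy x-ray at day 7, 1 (main 2) for 4 Gy x-ray over days, 2 (main 0) for 4 Gy x-ray against 1 Gy x-ray at day 7. Leaving out 1 mouse at a time gave 2 to 3 for 1 Gy neutron against control at day 1, 2 to 3 for 1 Gy neutron against control at day 7, 0 to 1 for 4 Gy x-ray against control at day 7, 1 to 2 for 1 Gy neutron against 1 Gy x-ray at day 1, 0 to 1 for 1 Gy neutron against 0.25 Gy neutron at day 1, 1 to 2 for 1 Gy neutron against 1 Gy x-ray at day 7, 1 to 2 for 1 Gy neutron against 4 Gy x-ray at day 7, 1 to 3 for 1 Gy neutron against 0.25 Gy neutron at day 7, 0 to 1 for controls of day 7 against day 1, 0 to 1 for 1 Gy x-ray over days, 1 to 2 for 4 Gy x-ray over days and 1 to 2 for 1 Gy neutron against 4 Gy x-ray over days, and the count did not move in the other comparisons.

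Single genes changed sign as follows. Under spike-in centring, the 1 Gy neutron against control values at day 7 were -0.55 for Gadd45a, -0.65 for Cdkn1a, -1.87 for Polk, -0.19 for Psrc1 and -0.00859 for Rrm2, those against 4 Gy x-ray -0.79 for Gadd45a, -2.25 for Gadd45b and -2.28 for Xpc, the 1 Gy neutron value over days -0.26 for Gadd45a, and the 1 Gy x-ray value at day 7 -0.0499 for Ube2b. Under normexp, Ddb2 was 0.0695 for 1 Gy neutron against 1 Gy x-ray and 0.0756 against 4 Gy x-ray at day 7, and 0.0460 between them over days. Under normexp Rrm2b was 0.92 for 1 Gy neutron against control, 1.05 against 1 Gy x-ray at day 7, 1.78 against 4 Gy x-ray over days, -0.22 for 4 Gy x-ray over days, and 0.0788 against control and 0.41 against 1 Gy x-ray for 4 Gy x-ray at day 1. Shprh was 1.00 for 1 Gy neutron at day 7 and 0.0916 for 4 Gy x-ray at day 1, and Cdk1 was -0.00133 for 1 Gy neutron at day 1. With the mean of all detected probes Ephx1 was 0.22 for 1 Gy neutron at day 7.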
